A study of Callithrix jacchus with 71 samples.

Results

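Classical cadherins are the adhesion receptors of adherens junctions, and 8 genes of this system were followed in single marmoset cells: the cadherins CDH1, CDH2, CDH3, CDH4, CDH6 and CDH11, and the catenins CTNNB1 and CTNND2. They were taken from a list of names, not by their values, and all 8 have a row among the 23561 named genes of the table. The question was which cadherin the cells carry before, during and after reprogramming, at what level, and in which combinations within a cell.

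Classical cadherins span the membrane and bind cadherins of the same or a related type on the neighbouring cell. Inside the cell their tails bind β-catenin and catenins of the δ family, and α-catenin links the complex to actin. Epithelial and pluripotent cells are held together mainly by E-cadherin, and neural progenitors by N-cadherin. A change between these receptors, known as a cadherin switch, accompanies the formation of the neural plate and the change of epithelial into mesenchymal cells.

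The cells were profiled by RamDA-seq, which copies RNA along its whole length in a sorted single cell. The cells of interest were 65 E01F A2 induced neural stem cell-like cells (iNSLCs), made from the E01F fibroblasts of embryonic marmoset dorsal skin with episomal vectors and kept in NSM, a medium made for a putative naive state of pluripotent cells. The vectors hold the human factors OCT4, KLF4, SOX2, LIN28 and L-MYC, together with EGFP and a mouse Trp53 of dominant-negative action. The iNSLCs were set against 5 pluripotent stem cells (PSCs), namely 1 E01F A-2-2 iPSC, which came from such iNSLCs after a change to medium for ESCs, and 4 ESCs of the clone No. 40, and against 1 E01F fibroblast, the starting cell type. The ESC clone was not made from E01F cells or with the vectors, so the iPSC is the only PSC of the same origin as the iNSLCs. Each group has 1 source in the labels and was taken as 1 culture, so a difference between groups is given as values and a fold, without a test, and the SD is the spread between cells.

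Levels are given in normalized counts as the authors computed them, where 1 read weighed 0.405 to 2.84 depending on the cell. Reads on genes were 82268 to 695241 in iNSLCs, 134328 to 1003718 in PSCs and 1294430 in the fibroblast. The median number of genes with a read was 10781 in iNSLCs and 15122 in PSCs, and the fibroblast had 14513. Shares and zeros are therefore compared between groups of unequal detection. Shares are of cells with at least 1 read and carry exact Clopper-Pearson intervals, which, like the Poisson intervals below, cover counting error only. The labels were checked against markers. The summed SOX2, PAX6, MSI1, NES and VIM lay between 1083 and 8313 normalized counts in the iNSLCs and between 122 and 232 in the PSCs. The fibroblast had 7168, with SOX2, PAX6 and MSI1 at 0. VIM was the largest part of this sum in iNSLCs and the fibroblast. Its mean was 2771 normalized counts in iNSLCs, 5.96 in PSCs and 7161 in the fibroblast. SOX2, PAX6, MSI1 and NES averaged 98.1, 22.8, 75.4 and 261 in iNSLCs, and 24.4, 0, 16.6 and 136 in PSCs. The summed POU5F1, NANOG, TDGF1, UTF1 and ZSCAN10 lay between 0 and 117 in the iNSLCs, between 281 and 734 in the PSCs and 0.405 in the fibroblast. The 9 fibroblast markers summed to 1.16 to 1094 in iNSLCs, 164 to 518 in PSCs and 26740 in the fibroblast.

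One ESC, cell 11, stood apart from the rest. It was the shallowest PSC and had no read for 10.0% of the 2668 genes that reached at least 20 normalized counts in each of the other 3 ESCs, where the same measure in those 3 was 0.0512% to 0.203%. Among the iNSLCs, cell 78 had no read for 3.82% of such genes, against 0% to 0.667% in the other 64. Results that rest on these cells are given with and without them.

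Among the type I cadherins, every iNSLC had reads of CDH2 and none of CDH1, while 4 of the 5 PSCs had reads of CDH1. CDH1 encodes E-cadherin. It had no read in any of the 65 iNSLCs, which allows a share of up to 4.62% of cells with a read when a count of 0 is taken as at most 3 cells, and of 5.52% by the exact Clopper-Pearson bound. The iPSC had 257.5 normalized counts of CDH1, ESC cells 10, 12 and 14 had 222.2, 148.5 and 146.6, ESC cell 11 had 0, and the fibroblast had 0. The mean was therefore 0 in iNSLCs and 155.0 ± 99.0 in PSCs (SD, n = 5), at least 2506-fold lower in iNSLCs when a floor of 3 reads over all iNSLCs is used. On the scale log2((mean + 1)/(mean + 1)) the ratio of iNSLCs over PSCs was -7.29, and it was -7.61 without ESC cell 11.

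CDH2 encodes N-cadherin. It was read in all 65 iNSLCs, with a lowest value of 23.9, a median of 114 and a highest value of 329 normalized counts. The iPSC and 3 of the ESCs had 0 CDH2, ESC cell 10 had 1 read (0.405), and the fibroblast had 97.5. The iNSLCs did not overlap with the PSCs, while the fibroblast lay inside their range, with 39 iNSLCs above it and 26 below. How many of all genes separate these groups in the same way was not counted, here or for the members below. The mean was 135 ± 78.7 (SD, n = 65) in iNSLCs and 0.0810 in PSCs, a log2 ratio of 6.98. The fold of 1673 rests on 1 read in the PSCs, and the counting interval of that read puts it between 300.3 and 66088. Against the fibroblast the CDH2 log2 ratio of the iNSLCs was 0.47.

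CDH1 and CDH2 were thus nearly exclusive across the 71 cells. The counts were 66 cells with CDH2 only (65 iNSLCs and the fibroblast), 3 with CDH1 only (the iPSC and ESC cells 12 and 14), 1 with both and 1 with neither. The cell with both was ESC cell 10, through its 1 read of CDH2, and the cell with neither was ESC cell 11. No cell had 2 or more reads of both genes.

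**Figure D1:**
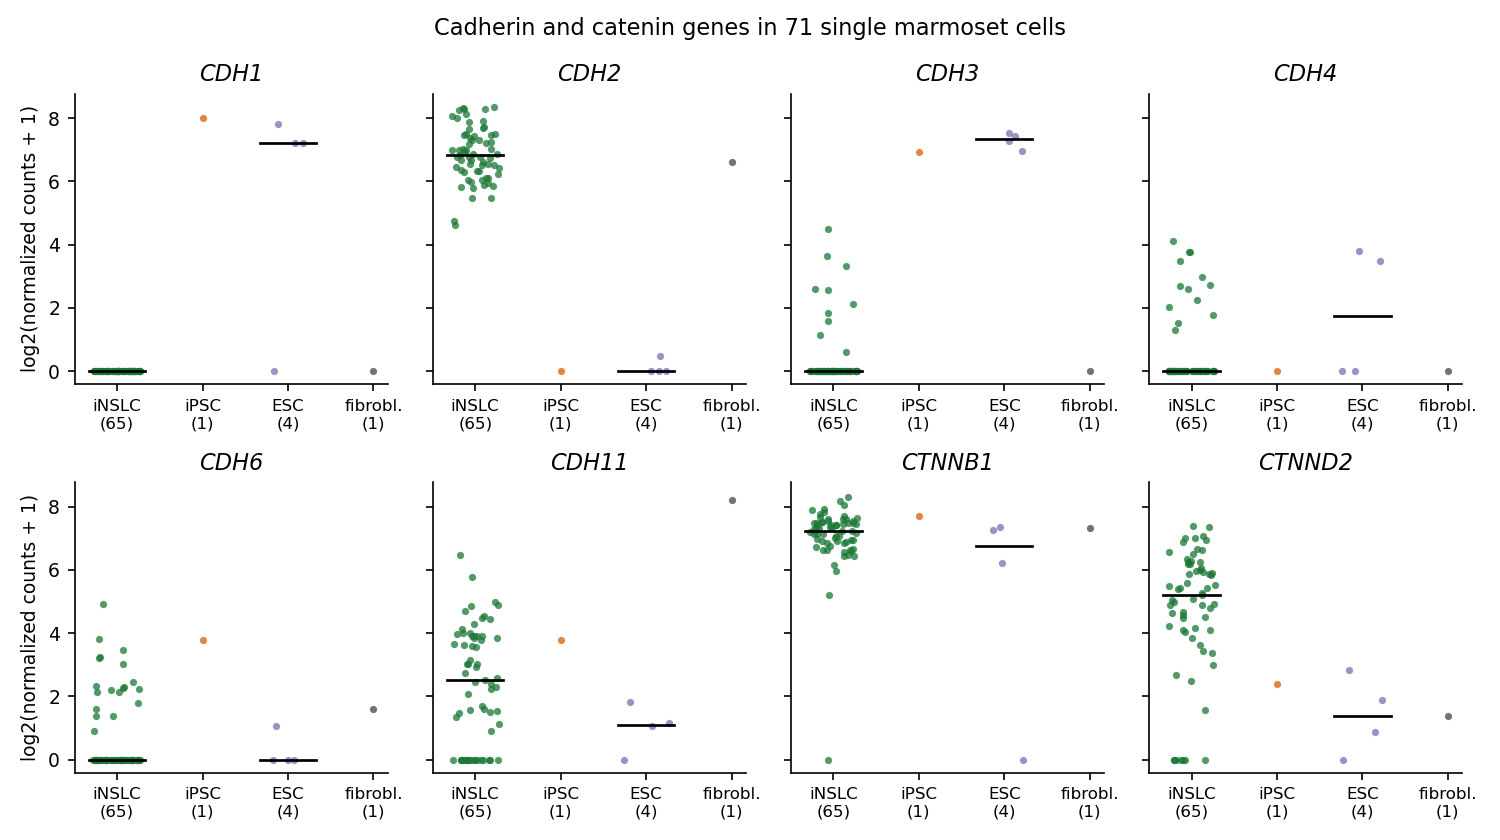
Level of each of the 8 genes, as log2(normalized counts + 1), in 65 iNSLCs, 1 iPSC, 4 ESCs and 1 fibroblast. Each point is a cell and each black line the median of the plotted values of a group. CDH1 is at 0 in every iNSLC, the lowest iNSLC of CDH2 (23.9 normalized counts) lies above every PSC, and CDH11 is highest in the fibroblast (296).

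CDH3 encodes P-cadherin, a type I cadherin of epithelia. It was the only member read in all 5 PSCs, with 120.8 normalized counts in the iPSC and 153.0, 122.6, 173.3 and 182.4 in ESC cells 10, 11, 12 and 14. ESC cell 11, without CDH1, was thus within the range of the others for CDH3. In the iNSLCs CDH3 was read in 10 of 65 cells (15.4%, interval 7.63% to 26.5%), with 0.518 to 21.3 normalized counts where it was found, and the fibroblast had none. The highest of these was cell 47, with 44 reads, still below the lowest PSC. The mean was 0.946 in iNSLCs and 150.4 ± 28.3 (SD, n = 5) in PSCs, a log2 ratio of -6.28, or 159-fold lower. Neither CDH1 nor CDH3 had a read in the fibroblast.

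In the RefSeq table of the marmoset assembly calJac240_pri, CDH1 and CDH3 are next to each other with no listed protein-coding gene between them. Both were low in iNSLCs, and they differed there in that CDH3 was read in 10 cells and CDH1 in 0.

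CDH4 encodes R-cadherin, a type I cadherin known from the retina and the developing brain. It was read in 13 of 65 iNSLCs (20%, interval 11.1% to 31.8%), with a highest value of 16.3 normalized counts. The iPSC, ESC cells 10 and 14 and the fibroblast had 0 CDH4, while ESC cells 11 and 12 had 10.2 and 13.0. The groups overlapped, and only 1 iNSLC exceeded the higher of these ESCs. The mean was 1.34 ± 3.39 (SD, n = 65) in iNSLCs and 4.63 ± 6.42 (SD, n = 5) in PSCs, a log2 ratio of -1.27, smaller in size than the 2 that was required to count a gene as changed.

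The type II cadherins CDH6 and CDH11 were shared between the groups. CDH6 encodes K-cadherin, which is known from the kidney and the neural folds. It was read in 19 of 65 iNSLCs (29.2%, interval 18.6% to 41.8%), with a highest value of 29.1 normalized counts. The iPSC had 12.8, ESC cell 12 had 1.08 (2 reads), the other ESCs had 0 and the fibroblast had 2.02. The log2 ratio of iNSLCs over PSCs was -0.45, and with the iPSC left out it was 1.13, so the direction for CDH6 depends on that 1 cell.

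CDH11 encodes OB-cadherin, a type II cadherin of mesenchymal cells. It was read in 47 of 65 iNSLCs (72.3%, interval 59.8% to 82.7%), with a median of 4.73 and a highest value of 87.0 normalized counts, and 18 iNSLCs had none. The iPSC had 12.8, ESC cells 10, 11, 12 and 14 had 1.21, 2.55, 1.08 and 0, and the fibroblast had 296. Every iNSLC was below the fibroblast, 20 were above the highest PSC, and 45 lay within the range of the PSCs. The mean was 9.60 ± 14.0 (SD, n = 65) in iNSLCs, a log2 ratio of -4.81 over the fibroblast (30.9-fold lower) and of 1.22 over PSCs. Against the 4 ESCs alone the CDH11 ratio was 2.26, which is past the fold required.

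The iPSC differed from the ESCs of the same PSC group in these same type II genes. CDH6 was at 12.8 normalized counts in the iPSC and at 0.270 on average in ESCs, and CDH11 at 12.8 in the iPSC and 1.21 on average in ESCs. Both iPSC values are 12 reads in 1 cell, with an exact Poisson interval of 6.63 to 22.4 normalized counts, and their part in the culture cannot be judged from 1 cell.

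β-catenin, encoded by CTNNB1, binds the tails of all these cadherins and is also the transcriptional effector of Wnt signalling. It was read in 64 of 65 iNSLCs, with a median of 149 and a highest value of 318 normalized counts. The exception was iNSLC cell 78 with 0, and the next lowest had 36.0. The iPSC had 207, ESC cells 10, 12 and 14 had 74.1, 162 and 154, ESC cell 11 had 0, and the fibroblast had 160. In the RefSeq table another protein-coding locus overlaps CTNNB1, and the counting is not stated to use strand, so reads of the pair cannot be told apart. Both zeros of CTNNB1 fell in the cells named above as lacking reads of other abundant genes. The groups overlapped, with means of 152 ± 56.8 (SD, n = 65) in iNSLCs and 119 ± 82.2 (SD, n = 5) in PSCs, a log2 ratio of 0.34 that became 0.02 without ESC cell 11.

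CTNND2 encodes δ-catenin, a neural member of the catenins that bind next to the membrane. It was read in 58 of 65 iNSLCs (89.2%, interval 79.1% to 95.6%), with a median of 35.7 and a highest value of 168 normalized counts, and 7 iNSLCs had none. The iPSC had 4.27, ESC cells 10, 11, 12 and 14 had 6.07, 0, 2.70 and 0.833, and the fibroblast had 1.62 (4 reads). The iNSLCs overlapped with the PSCs in 10 cells, and the other 55 were above every PSC. The mean was 47.3 ± 42.0 (SD, n = 65) in iNSLCs and 2.78 ± 2.48 (SD, n = 5) in PSCs, a log2 ratio of 3.68, or 17.1-fold. Over the fibroblast the CTNND2 log2 ratio was 4.21.

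A gene was counted as changed at a log2 ratio of at least 2 in either direction. Against PSCs, 2 of the 8 members were higher in iNSLCs (CDH2 and CTNND2), where 5.29% of 14150 genes were, and 2 were lower (CDH1 and CDH3), where 8.64% were. Against the fibroblast, 1 member was higher (CTNND2), where 10.7% of genes were, and 1 was lower (CDH11), where 8.17% were. All 8 members passed the filter of a mean of at least 1 over the 71 cells, CDH1 through the PSCs alone and CDH3 mainly through them. CDH2, with a mean of 0.0810 in PSCs, passed it through the iNSLCs and the fibroblast, so the counts of members are a description. The median log2 ratio of all tested genes was -0.16 over PSCs and 0.10 over the fibroblast. Bringing all cells to 1 common total raised the median ratio over PSCs by 0.26 and changed the balance of all genes past the fold to 938 higher and 926 lower, against 749 higher and 1222 lower as deposited, while the same 4 members passed it in the same directions. Over the fibroblast the balance became 2195 higher and 609 lower, against 1516 higher and 1156 lower as deposited.

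Within a cell, CDH2 was accompanied by other cadherins in most iNSLCs. The most frequent combination was CDH2 with CDH11, in 23 of 65 cells (35.4%, interval 23.9% to 48.2%), followed by CDH2 alone in 12 (18.5%). CDH2 with CDH6 and CDH11 was read in 6, and CDH2 with CDH4, CDH6 and CDH11 also in 6. A mean of 2.37 ± 1.01 (SD, n = 65) of the 6 member cadherins was read per iNSLC, with 29 cells at 2, 13 at 3, 10 at 4 and 1 at 5. That last cell had every member cadherin other than CDH1. PSCs had 2 to 5 member cadherins, all of them with CDH3, and the fibroblast had 3 (CDH2, CDH6 and CDH11).

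The number of cadherins with a read depends on depth. When all cells were brought to 134328 reads, which left out 8 shallower iNSLCs, the mean over the other 57 was 2.24, and the share of iNSLCs with CDH11 was 65.8%, against 71.9% in the same cells before. The PSCs were then at 53.6% for CDH11, against 80% before.

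**Figure D2:**
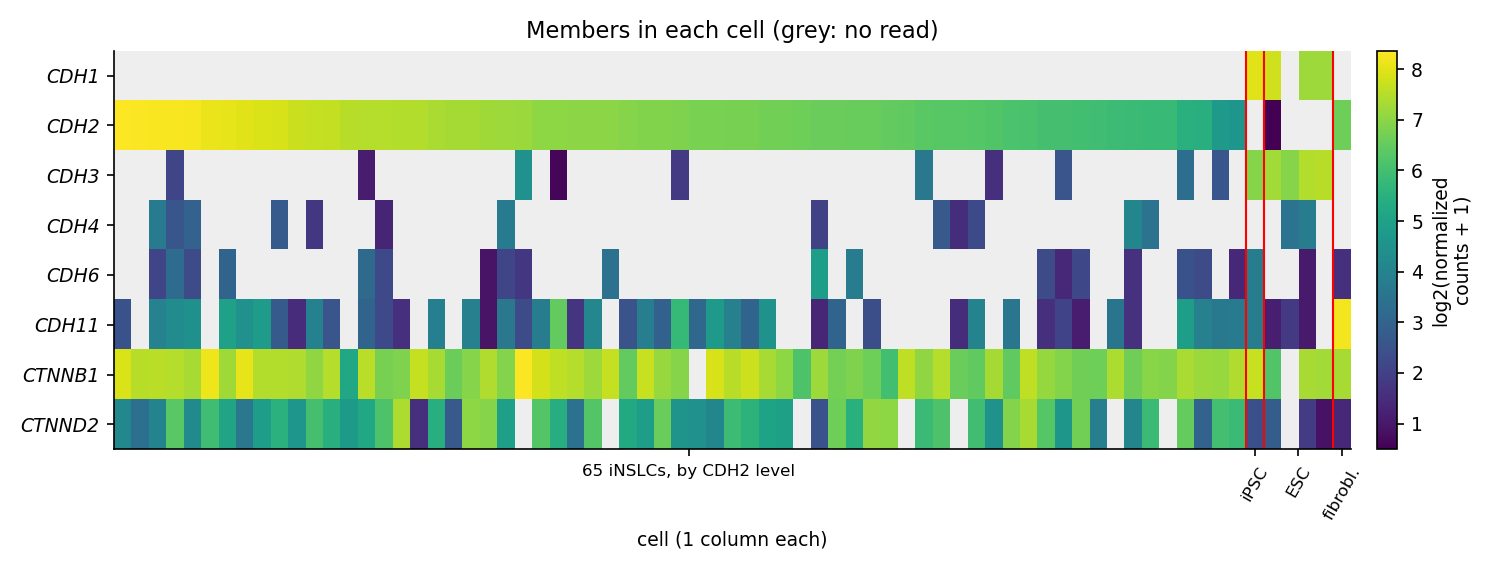
The 8 genes (lines) in each of the 71 cells (columns), coloured by log2(normalized counts + 1), with grey for no read. The 65 iNSLCs are ordered by CDH2 level, followed, between red lines, by the iPSC, ESC cells 10, 11, 12 and 14, and the fibroblast. CDH2 fills the whole iNSLC block, where CDH1 is empty and CDH11 is read in 47 cells, and CDH3 fills the PSC block.

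Pairs of the sparsely read cadherins were compared with the number of cells that would hold both if each were read independently at its observed share. CDH4 and CDH6 were read together in 7 iNSLCs, against 3.8, and CDH6 and CDH11 in 17, against 13.7. CDH3 and CDH6 were read together in 5 iNSLCs, against 2.92, and CDH3 and CDH4 in 1, against 2. At equal depth, over 57 iNSLCs, CDH4 with CDH6 stood at 5.76 cells against 2.72, CDH6 with CDH11 at 11.7 against 10.1, CDH3 with CDH6 at 3.49 against 2.09 and CDH3 with CDH4 at 0.731 against 1.37. These are a few cells of 1 culture, and the values are a description.

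The relation of CDH2 to the other members across the 65 iNSLCs was described by Pearson's r of log2(value + 1) and by Spearman's rho. With CTNNB1, r was 0.15 and rho 0.37, and without iNSLC cell 78, which had no CTNNB1, they were 0.28 and 0.38. With CDH11, r was 0.14 and rho 0.21, with CTNND2 0.01 and -0.07, and with CDH3 -0.18 and -0.13. The CDH2 and CDH11 values differed between the iNSLCs of cell numbers 57 or above (r 0.37, rho 0.43) and of 56 or below (r -0.04, rho 0.01), sets of unequal depth. For CDH11 with CTNND2, r was 0.25 and rho 0.15, and for CDH4 with CDH6 both were 0.28. All points share the sequencing depth of their cell. CDH2 itself had an r of 0.23 with the log of the reads per cell, and CTNND2 one of 0.06.

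The iNSLCs of cell numbers 57 or above and 56 or below differ in depth, with a median of 208746 reads against 357910. The shallower cells of 57 or above had more genes with a read, at a median of 11333.5 against 10061. Shares of cells with a read are thus compared between sets of unequal detection. The labels do not say whether the cell numbers mark a plate, a sort or a run. The boundary comes from earlier work on these data, so the sets are given side by side. CDH2 averaged 115 ± 67.2 normalized counts in the 38 cells of 57 or above and 164 ± 85.6 in the 27 cells of 56 or below. CTNND2 averaged 55.7 ± 42.4 in the cells of 57 or above and 35.6 ± 39.1 in those of 56 or below, the opposite direction. CDH11 was read in 78.9% of the cells of 57 or above and in 63.0% of those of 56 or below, while its mean was 8.13 ± 7.87 in the cells of 57 or above and 11.7 ± 19.7 in those of 56 or below. CDH4 was read in 26.3% of the cells of 57 or above and in 11.1% of the others, and its intervals overlapped (13.4% to 43.1% and 2.35% to 29.2%).

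**Figure D3:**
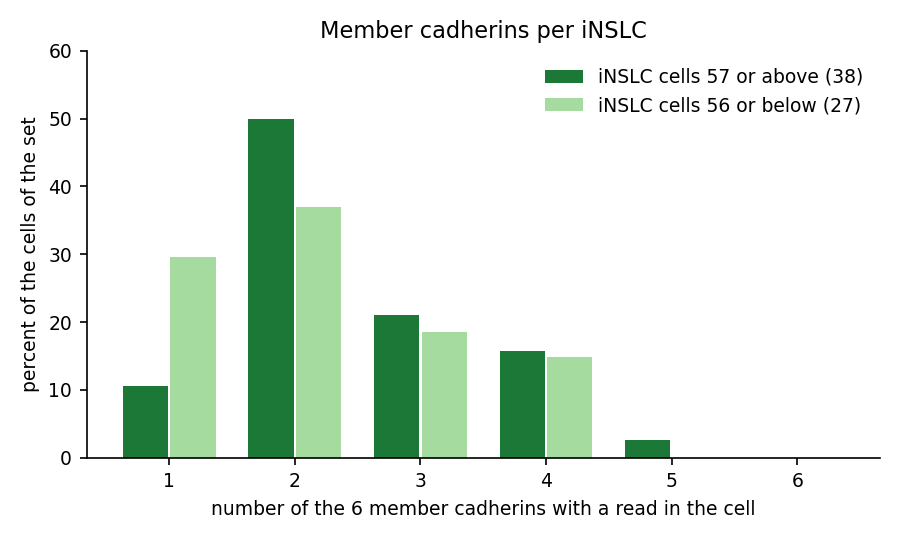
Share of iNSLCs by the number of the 6 member cadherins with a read, for the 38 cells numbered 57 or above (dark) and the 27 numbered 56 or below (light). Both sets peak at 2 cadherins, which 50% of the cells of 57 or above and 37.0% of those of 56 or below have, and cells with 1 make up 10.5% of the dark and 29.6% of the light set.

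Between iNSLCs, CTNNB1 varied little and the other members more. The CV of CTNNB1 over the 65 cells was 37.4%, and 17.5% of the 273 genes within 1.5-fold of its mean had a lower CV. For CDH2 the CV was 58.1%, higher than in 70.4% of the 330 genes of like mean. CTNND2 had a CV of 88.7%, higher than in 89.6% of genes of like mean, and CDH11 one of 146%, higher than in 91.0%. Counting error alone would give CVs of 9.59% for CDH2, 17.1% for CTNND2 and 35.4% for CDH11, all below the CVs measured.

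The genes whose log2 level followed each member most closely were sought among those found in at least 50% of iNSLCs. For CDH2 they were YWHAQ, PRTG, RPS24, CXHXorf38 and HNRNPK, with r between 0.48 and 0.49 over 65 cells. PRTG encodes protogenin, a membrane protein of the early neural tube. For CDH11 they were HMGA2, DDB1, NAT10, GLDC and POP5, with r between 0.45 and 0.48, and HMGA2 encodes a chromatin protein of embryonic and fetal cells. For CTNND2 they were BTBD2 (r = 0.61), EMID1, SOX21, COL4A2 and LTBP4 (0.57), of which SOX21 encodes a transcription factor of neural progenitors. The names depend on the measure. The 5 genes of highest Spearman's rho shared 1 with these 5 for CDH2, 1 for CDH11 and 2 for CTNND2. Over all 9364 genes compared, the 95th percentile of r was 0.26 for CDH2, 0.27 for CDH11 and 0.33 for CTNND2. The named genes were picked as the highest of these, so they lie above that percentile by selection. Whether their r exceeds the highest that unrelated genes would give was not tested.

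For CTNNB1 the genes nearest were PEG3 (r = 0.82), DDOST, ABI2, HUWE1 and UGGT1 (0.75). All 5 were at 0 in iNSLC cell 78, as CTNNB1 was, and without that cell their r with CTNNB1 was 0.12 to 0.42. The 5 nearest genes were then TOP2A (0.58), TMEM123, FEM1B, PANK2 and STOML2 (0.54).

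Genes of the same junctions were read from lists and compared between iNSLCs and PSCs in the same way. Among all 14150 tested genes, 5.29% were higher and 8.64% lower in iNSLCs. Of 12 other classical cadherins of types I and II, 9 had a row and 5 passed the filter, and 2 of these were higher in iNSLCs. They were CDH10 (6.25 against 0.380 normalized counts, log2 ratio 2.39) and CDH8 (3.04 against 0 normalized counts, at least 4.70-fold), both type II cadherins of the brain. Both had a mean below 1 in PSCs, so they passed the filter through the iNSLCs, and the count is a description. The CDH10 value rests on 2 reads in PSCs, and its fold of 16.4 has a counting interval of 4.55 to 136. In the RefSeq table CDH10 is a near neighbour of CDH6, and CDH8 of CDH11. No tested gene of this list was lower, and its median was 1.25.

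The remaining catenins did not pass the fold. None of the 5 tested catenins other than the members passed it in either direction, with a median of -0.63. α-E-catenin, encoded by CTNNA1, was at 50.5 ± 22.1 normalized counts in iNSLCs (SD, n = 65) and 116 ± 63.9 in PSCs (SD, n = 5), a log2 ratio of -1.18. None of the 9 tested nectins and linkers of the adherens junction passed it over the 5 PSCs. CTNNA1 was picked for naming with its value known.

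The epithelial genes were lower in iNSLCs as CDH1 was. Of 13 tested genes of epithelial junctions and splicing, 12 were lower and 0 higher, with a median of -4.67. For 10 of these 12 the mean in iNSLCs was below 1, so they passed the filter only through the PSCs, and the count is a description. EPCAM, an adhesion molecule of epithelial and pluripotent cells, was at 0.280 normalized counts in iNSLCs and 74.8 in PSCs, a log2 ratio of -5.89. GRHL2, which encodes a transcription factor that activates E-cadherin, had a ratio of -5.23. ST14, a membrane protease of epithelia, had 1 read in all iNSLCs (log2 ratio -6.19), and ESRP1, an epithelial splicing factor, had 3 (log2 ratio -5.62). The counting intervals of these reads put the fold of PSCs over iNSLCs between 1521 and 334658 for ST14 and between 247 and 3494 for ESRP1. Against the 1 fibroblast, none of the 13 was lower, where 8.17% of all genes were. The junction protein gene CGN was the 1 higher gene, where 10.7% of all genes were. The fibroblast had no read of CGN, EPCAM, GRHL2, ST14 or ESRP1, among others. These genes could not be lower in iNSLCs, so the absence of lower genes was in part fixed beforehand. Of 4 tested desmosome genes, DSP (log2 ratio -3.79) and DSG2 (-2.40) were lower and DSC2 was higher (2.61), the last from 3 reads in PSCs, with a fold of 15.7 and an interval of 5.37 to 76.1.

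Of the 7 transcription factors known for the cadherin switch, ZEB1 and ZEB2, repressors of CDH1, were higher in iNSLCs. Both had a mean below 1 in PSCs, so they passed the filter through the iNSLCs. ZEB2 was read in 62 of 65 iNSLCs (mean 34.9 ± 23.1 normalized counts, SD) and by 1 read in PSCs, a log2 ratio of 5.05. The ZEB2 fold of 431 rests on that 1 read, with a counting interval of 77.3 to 17018. ZEB1 was also read in 62 iNSLCs, with a mean of 17.0 ± 20.2 (SD) against 0.751 in PSCs and a ratio of 3.36. In the 1 fibroblast, ZEB2 was at 17.8 and ZEB1 at 11.3 normalized counts, and CDH1 had no read. Whether ZEB1 or ZEB2 acts on CDH1 in these cells was not tested. The other 5 factors did not pass the fold over PSCs, and SNAI2, a further repressor of CDH1, passed it over the 4 ESCs alone. Against the 1 fibroblast, SNAI2, TWIST1 and TWIST2 were lower in iNSLCs, where 8.17% of all genes were, with a ratio of -3.38 for SNAI2. TWIST1 averaged 0.979 and TWIST2 0.0707 normalized counts in iNSLCs, and both were below 1 in PSCs. They passed the filter through the fibroblast (31.6 and 84.2), so the count is a description.

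The protocadherins are a separate branch of the cadherin superfamily. Of 9 tested genes of a list of 8 δ protocadherins and T-cadherin (CDH13), 4 were higher in iNSLCs and 0 lower, and all 4 were protocadherins. For 3 of these 4 the mean in PSCs was below 1, so they passed the filter through the iNSLCs, and the count is a description. PCDH8 averaged 54.9 normalized counts in iNSLCs and 0.427 in PSCs (log2 ratio 5.29), and PCDH17, PCDH19 and PCDH7 had ratios of 3.67, 3.46 and 2.77. The PCDH8 fold of 128 rests on 2 reads in PSCs, with a counting interval of 35.5 to 1060. PCDH8 was also uneven among iNSLCs, with reads in 43 of 65.

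The 9 tested targets of β-catenin were split, although CTNNB1 itself was not changed past the fold. NKD1, LEF1, SP5 and LGR5 were higher in iNSLCs, with log2 ratios between 2.66 (LGR5) and 3.76 (NKD1). LEF1 encodes a DNA-binding partner of β-catenin, NKD1 an inhibitor of the pathway, SP5 a transcription factor and LGR5 a receptor for R-spondins. NOTUM, an inhibitor of Wnt ligands, was lower (-2.47), and it did not pass the fold with the iPSC left out. Its mean in iNSLCs was 0.818, below the 1 of the filter. AXIN2, another target and inhibitor, was not past the fold (-0.96), a name chosen after its value was seen. None of the 6 genes of the complex that degrades β-catenin passed the fold, with a median of 0.03. Among the 6 tested enzymes that process or cleave cadherins, FURIN, a protease that matures cadherin precursors, was lower (-2.90).

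**Figure D4:**
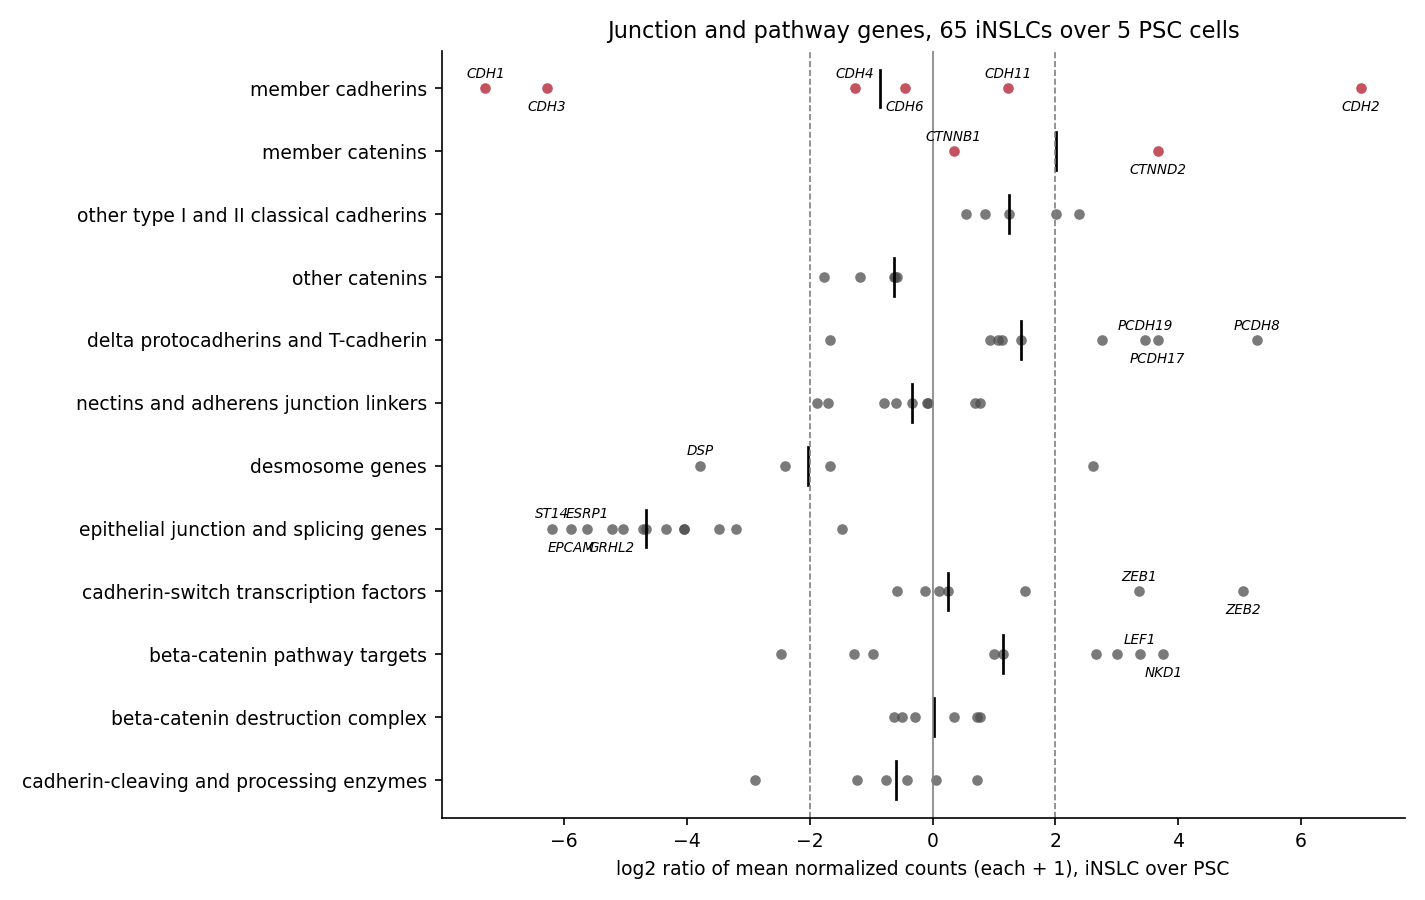
Log2 ratios of mean normalized counts (each + 1) of 65 iNSLCs over 5 PSCs for the members (red) and other junction and pathway genes (grey), with 1 line per list, a black mark at the list's median and dashed lines at the required ratio of 2. CDH1 (-7.29) and CDH3 (-6.28) lie on the side of the epithelial genes (median -4.67), and CDH2 (6.98) lies on that of ZEB2 (5.05) and PCDH8 (5.29).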

How the data were processed

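Single-cell RamDA-seq was measured in 71 marmoset cells. The authors deposited 1 signal per gene and cell, a read count normalized by a factor of that cell. Tools listed in the submitters' processing notes are Seurat 3.0.0, featureCounts 1.5.1, STAR 2.6.0c and Trimmomatic, with no roles stated. Build and annotation: not given in the sources used here. All non-zero values were within 0.02 of a whole number of reads (largest deviation 0.00115), so reads per cell were recovered. The row with no gene name, at most 0.449% of a cell's total, was left out.

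Each sample is 1 cell, and each group was taken as 1 culture, because the labels state no number of cultures. No test between groups was therefore made, and no count model was fitted. Ratios are log2((mean + 1)/(mean + 1)), a scale that understates changes of low genes. They were called at a size of at least 2 among the 14150 genes whose mean over all cells was at least 1. Where a group had no read, the fold was taken against 3 reads summed over that group (0.0618 normalized counts for the iNSLCs, 0.648 for the PSCs). A fold that rests on 1 to 3 reads has its exact Poisson interval at 95%. Equal depth was computed as the expected share of cells with a read at 134328 reads. Levels of different genes were not compared, because no transcript lengths were at hand.

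The members and the gene lists were chosen with earlier results of these data known. Named genes are all members, up to 4 genes past the fold of each list, and the 5 genes of highest Pearson correlation with each member found in at least 50% of iNSLCs. Gene neighbours come from RefSeq's table for calJac240_pri. Values were computed in Python 3.11.15 with numpy 2.4.6, pandas 2.3.3 and scipy 1.17.1, plots were drawn with matplotlib 3.10.9, and the steps were tested on simulated data. The alternatives were another pseudocount, other filters, scaling to equal totals, medians, ESCs alone, each ESC left out, the 10% of iNSLCs with the fewest genes left out, stricter detection, equal depth, rank correlation and the sets of cell numbers.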

Additional observations from a re-analysis of the deposited data

Results flagged for a closer look

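Among the 4 ESCs, the highest cell stood far from the other 3 for 2 of the 8 members. For CDH2 it was ESC cell 10 at 0.405 normalized counts, which is 1 read, where the other 3 had 0. For CDH6 it was ESC cell 12 at 1.08 normalized counts, which is 2 reads, where the other 3 had 0. The rule compares the gap to the nearest cell with the range of the group. It singles out about 1 group in 20 by chance, and any gene read in 1 of 4 cells meets it.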

How the results depend on the processing

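Over the 8 members, all ratios over PSCs past the fold kept their direction and stayed past it under each alternative. Most ratios moved by less than the spread between cells. A pseudocount of 10 gave log2 ratios of 3.85 for CDH2, -3.87 for CDH3, -4.04 for CDH1 and 2.17 for CTNND2, the last close to the required 2, and medians over cells gave -7.27 for CDH3. When each ESC was left out, the ratio was -7.61 to -7.12 for CDH1, 6.95 to 7.09 for CDH2, -6.35 to -6.20 for CDH3, 0.97 to 1.15 for CDH11 and 3.44 to 4.03 for CTNND2. A value of at least 10 was reached by 38.5% of iNSLCs for CDH11, 3.08% for CDH3, 6.15% for CDH4 and 4.62% for CDH6.

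The counts over all genes moved more. A mean of at least 10 gave 481 genes higher and 355 lower over PSCs, and 872 higher and 419 lower over the fibroblast. A pseudocount of 10 gave 126 higher and 340 lower over PSCs, and 237 higher and 544 lower over the fibroblast. Scaling to equal totals gave 609 lower over the fibroblast. When each ESC was left out, 688 to 871 genes were higher and 1141 to 1303 lower over PSCs. These counts over all genes, other than those under a changed filter, and the lists without ESC cell 11 or with ESCs alone were chosen after seeing the data, as was leaving out iNSLC cell 78. The rank correlation of CTNNB1 with PEG3 was 0.25.

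No paired analysis was possible because no group shares a cell number with another. The cadherin of highest level per length was not determined, since transcript lengths were not at hand. The precision is limited by 5 PSCs, 1 fibroblast and 1 culture per group.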
